A study of Mus musculus with 6 samples.

Results

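The transcripts of the normal mouse retina at postnatal day 21 were described from the 3 arrays labelled wildtype retina, of 6 arrays in the series. The members were chosen by their sample titles alone. Each RNA came from 2 pooled retinas of C57Bl/6 wildtype mice of mixed sex, dissected into a preservative, and the labels do not say whether the 3 pools came from separate litters or days. The other 3 arrays were labelled knockout for ERRβ and were not used. The values were array intensities, 1 for each of 45037 probe sets after 64 controls of the array maker were left out. Replicates 1 and 2 had a trimmed mean signal of 500 and replicate 3 of 150, so signals cannot be set side by side across them. Levels are therefore given as percentiles of signal within each array, where 100 is the brightest probe set and 0 the dimmest, and as ranks, where 1 is the brightest. With 1 group and 1 array alone on its scale, no test was made, and the number of arrays limits the precision.

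The retina turns light into nerve signals in layers of specialised cells. Rod photoreceptors, by far the most numerous cell in the mouse retina, absorb photons in stacked membrane discs of the outer segment and pass the signal through the G protein transducin to a cGMP phosphodiesterase, which closes cGMP-gated channels. Cones work alike in brighter light with their own set of proteins, bipolar, horizontal, amacrine and ganglion cells carry and shape the signal, and Müller glia span the tissue and recycle glutamate and visual pigment. At this age photoreceptors have formed their outer segments and cell division in the mouse retina has largely ended.

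The labelled tissue was checked against marker genes of rods and Müller glia, and all 5 were bright in every array. Gnat1, rod transducin α, ranked 2, 2 and 4 in replicates 1, 2 and 3. Sag, rod arrestin, which ends the response of the visual pigment, ranked 3, 5 and 2, and Pde6g, the inhibitory subunit of rod phosphodiesterase, ranked 25, 27 and 71. Of the Müller glia markers, Glul, glutamine synthetase, ranked 44, 45 and 27, and Rlbp1, the retinaldehyde binding protein of the visual cycle, ranked 338, 309 and 722. Genes of distant tissues marked where the signal of genes with little or no retinal expression falls. For 42 such genes, among them albumin, growth hormone and milk proteins, the median percentile was 25.7, 23.0 and 24.5 in the 3 arrays, and 37 of 42 lay under the 50th percentile in all 3, as did 34.4% of all genes. A bulk RNA sample does not tell fewer cells of a type from less RNA per cell, and this holds for every cell type described here.

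A gene was represented by its brightest probe set, the one with the highest median percentile over the 3 arrays, among the 34945 probe sets with exactly 1 gene symbol. That gave 18193 genes. A rank orders the brightness of probe sets, which also depends on how well the probes bind, so it orders transcripts only roughly. The 9010 genes with 2 or more probe sets show how roughly: the brightest and the dimmest probe set of a gene lay a median of 24.2 percentile points apart, with quartiles of 10.9 and 43.1 points. Of the 1590 such genes in the top 10% of all 3 arrays, 550 (34.6%) had another probe set under the 50th percentile.

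The upper end of the range held many rod genes beside genes of translation, cytoskeleton and energy metabolism, and 45 of the first 100 genes were on no list. Ordered by the worst of their 3 ranks, the first genes were Gnat1, Sag, Hmgn1, Nrl, Pdc, Tpt1, Pde6b, ND5, Eef1a1 and Snap25. Hmgn1, a nucleosome-binding protein, ranked 8, 7 and 7, read by a probe set whose type can cross-hybridise, and another of its 4 probe sets had a median percentile of 44.2. Nrl, the transcription factor that directs cells to the rod fate, ranked 9, 9 and 6. Pdc, phosducin, which binds transducin βγ, ranked 10, 10 and 21. Of these 10 genes, 5 are rod genes.

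Others of the first 10 are expressed in most cells or in neurons. Tpt1, the translationally controlled tumour protein, ranked 21, 24 and 17, and Eef1a1, the elongation factor that brings tRNA to the ribosome, ranked 22, 17 and 35. ND5, a subunit of respiratory complex I encoded in mitochondrial DNA, ranked 32, 23 and 10. Snap25, a SNARE protein of vesicle release, ranked 36, 26 and 15. Among the next 30 genes were the photoreceptor genes Gnb1, Prom1, Unc119, Pde6g, Rcvrn, Cdhr1, Guca1b, Reep6 and Rbp3, the glycolytic enzyme Aldoa, creatine kinase Ckb, the mitochondrial ADP/ATP carrier Slc25a4, the neuronal chloride exporter Slc12a5 and the synaptic calcium sensor Syt1. Rbp3, the retinoid carrier between photoreceptors and pigment epithelium, was on no list and had percentiles of 99.96, 99.96 and 99.84. E130218I03Rik, annotated as a long non-coding RNA, also stood among the 40, at 99.85, 99.85 and 99.80.

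**Figure D1:**
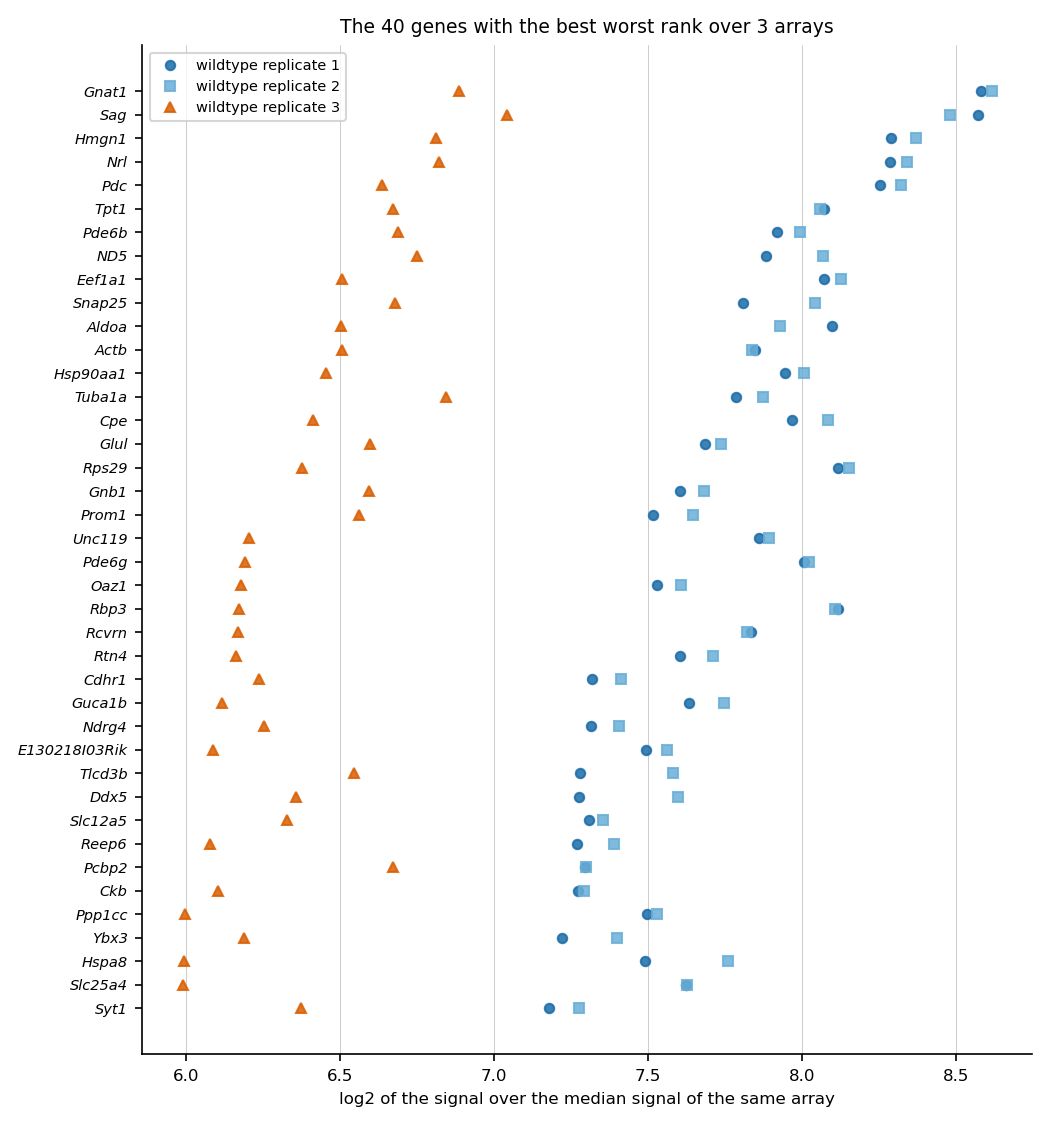
Signal of the 40 brightest genes in each wildtype array, as log2 of the signal over the median signal of the same array (horizontal axis), ordered by the worst of the 3 ranks, with a circle, square and triangle for replicates 1, 2 and 3. The triangles of replicate 3 lie to the left of the other marks for all 40 genes, while Gnat1 and Sag head the order.

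In replicate 3 these genes stood less far above the middle of the array. The 99th percentile of signal was 72.9 and 77.0 times the median in replicates 1 and 2 and 36.2 times in replicate 3, and the brightest 1% of probe sets held 23.7%, 23.9% and 16.4% of the summed signal. Ranks are not affected by such a narrowing as long as order is kept. The 161 genes in the top 1% of all 3 arrays (0.885% of genes) held 31 genes of the photoreceptor lists, 20 of the lists for ribosome, translation and cytoskeleton and 13 of the energy lists. In all, 76 of the 161 were on a list, while the lists hold 3.73% of all genes, a share that reflects how the lists were chosen. In the first 100 genes of the order, 25 were on the photoreceptor lists, 2 were on the Müller glia list and none was a marker on the lists for inner retinal neurons, immune cells or vessels.

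Rod phototransduction had the highest median of the 37 lists, 99.84, 99.83 and 99.67 in the 3 arrays (19 members). Of the 19, 16 were in the top 10% of all 3 arrays, where 11.3% of all genes were, and 14 were in the top 1%. For the amplifying enzyme, the catalytic subunit Pde6b ranked 31, 30 and 13 with signals of 32673, 33203 and 5911, and the other catalytic subunit, Pde6a, lay at 98.0, 98.1 and 97.6. Transducin γ (Gngt1) lay at 99.87, 99.88 and 99.40 and transducin β (Gnb1), which other cells use too, at 99.88, 99.89 and 99.94. Both stood in the top 1% of every array.

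The channel and calcium feedback genes were nearly as bright. The channel subunit Cnga1 lay at 99.43, 99.51 and 99.50 and its partner Cngb1 at 98.3, 98.2 and 96.7. The sodium, calcium and potassium exchanger Slc24a1 lay at 99.84, 99.83 and 99.68. The guanylate cyclase activators Guca1a and Guca1b, which restart cGMP synthesis when calcium falls, lay at 99.5 or above in every array, as did recoverin (Rcvrn), which restrains the visual pigment kinase. The 3 dimmest members were the visual pigment kinase Grk1 at 81.7, 83.3 and 84.0, the GTPase accelerator Rgs9 at 74.9, 71.7 and 80.3, and the cyclase Gucy2e at 61.1, 61.8 and 53.3. All 3 stayed above the 50th percentile in every array. Rgs9bp and Gnb5, which form the complex with Rgs9, lay at 99.05 or above in every array.

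Promoters of the brightest rod genes are shown because members of this list held a core site of the photoreceptor homeodomain factor CRX more often than other promoters did. The factor Crx was itself bright, at 99.74, 99.74 and 99.61. The letters TAATCC, or GGATTA on the other strand, were found in 7 of the 13 rod promoters matched in the RefSeq-based table (GRCm38.p6, from 250 bases before to 50 after the start, the first entry of a gene). They were found in 867 of 14367 promoters of all matched genes, 6.03%. Gngt1, Cnga1, Cngb1, Sag, Gnb5, Guca1a and Gucy2e held them. The 250 bases before the start are printed 5′ to 3′ in the direction of the gene for the 4 brightest of these genes, with GGATTA in capitals.
Sag, chr1:87803430-87803679 (plus strand): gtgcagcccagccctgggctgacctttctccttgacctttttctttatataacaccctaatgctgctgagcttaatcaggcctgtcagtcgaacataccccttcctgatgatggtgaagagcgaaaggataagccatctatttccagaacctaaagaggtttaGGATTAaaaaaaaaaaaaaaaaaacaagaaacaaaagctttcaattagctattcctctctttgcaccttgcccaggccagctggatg
Gngt1, chr6:3993758-3994007 (plus strand): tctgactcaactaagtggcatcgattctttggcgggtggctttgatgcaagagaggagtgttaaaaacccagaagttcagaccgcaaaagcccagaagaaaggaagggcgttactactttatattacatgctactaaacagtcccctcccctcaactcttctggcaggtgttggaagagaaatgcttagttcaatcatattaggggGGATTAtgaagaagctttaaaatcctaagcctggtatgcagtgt
Guca1a, chr17:47400607-47400856 (minus strand): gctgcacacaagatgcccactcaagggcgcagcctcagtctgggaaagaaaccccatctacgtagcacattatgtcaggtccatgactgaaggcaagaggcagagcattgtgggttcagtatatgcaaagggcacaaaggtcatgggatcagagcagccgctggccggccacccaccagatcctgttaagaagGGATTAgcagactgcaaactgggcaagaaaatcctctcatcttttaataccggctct
Gnb5, chr9:75306038-75306287 (plus strand): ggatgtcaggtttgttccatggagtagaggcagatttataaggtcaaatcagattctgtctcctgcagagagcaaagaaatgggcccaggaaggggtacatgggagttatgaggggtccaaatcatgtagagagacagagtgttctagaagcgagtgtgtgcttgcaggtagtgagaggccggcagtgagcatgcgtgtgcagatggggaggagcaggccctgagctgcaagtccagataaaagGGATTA

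In all 4 the match reads GGATTA in the direction of the gene. Its first base lies 87 bases before the start in Sag, 57 in Guca1a, 44 in Gngt1 and 6 in Gnb5. Pdc, which ranked 10, 10 and 21, held neither orientation in its 300-base window, and its upstream bases are printed for contrast, with no capitals.
Pdc, chr1:150319167-150319416 (plus strand): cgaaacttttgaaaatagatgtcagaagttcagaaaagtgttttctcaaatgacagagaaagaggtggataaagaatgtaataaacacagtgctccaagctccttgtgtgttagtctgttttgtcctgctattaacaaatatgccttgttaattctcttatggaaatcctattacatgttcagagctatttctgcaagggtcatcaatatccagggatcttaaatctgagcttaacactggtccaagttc
A match is a string of letters and not a measured binding site, and its absence says only that these letters are not in this window.

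Genes of the outer segment and its transport were bright too, with medians of 99.24, 99.16 and 99.05 (22 members, 16 in the top 10% and 11 in the top 1% of all arrays). Prom1 and Cdhr1, which shape new discs, lay at 99.81 or above in every array, and so did Unc119, a chaperone that carries transducin. Rom1, a tetraspanin of the disc rim, lay at 99.88, 99.88 and 99.65, and Abca4, the flippase that clears retinoid from discs, at 99.13, 99.02 and 99.24. Aipl1, the chaperone of the phosphodiesterase, and the ciliary proteins Rp1 and Tulp1 lay between 99.47 and 99.78. The dimmest members were Rpgr, a ciliary GTPase regulator, at 75.7, 76.6 and 87.6, Pcdh15 at 80.7, 81.6 and 86.0, and Fscn2 at 86.1, 87.6 and 75.2.

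Prph2 stood apart. It encodes peripherin, the tetraspanin partner of Rom1 in the disc rim, and its only probe set read 14114 and 14987 in replicates 1 and 2 but 89.4 in replicate 3. The percentiles were 99.48, 99.49 and 59.8, the lowest in replicate 3 of all 165 probe sets that were in the top 1% of replicates 1 and 2 and not of replicate 3. No second probe set of this gene was named in the annotation used here. Rom1, Prom1, Cdhr1 and Abca4 lay above the 99th percentile in replicate 3, while Fscn2 and Nxnl1 were, with Prph2, the 3 members over 10 points lower there and Rpgr the 1 over 10 points higher.

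Cone genes were lower than rod genes but still high, with medians of 97.2, 97.0 and 93.0 (10 members, 7 in the top 10% and 1 in the top 1% of all arrays). The short-wavelength opsin Opn1sw was brightest, with signals of 12289, 13157 and 2988 and percentiles of 99.32, 99.38 and 99.57. The middle-wavelength opsin Opn1mw lay at 97.8, 97.7 and 92.6, below Opn1sw in every array, though a comparison between probe sets also holds their binding. Gnat2, cone transducin α, lay at 97.8, 97.9 and 97.9, Arr3, cone arrestin, at 97.3, 97.1 and 94.7, and the phosphodiesterase genes Pde6h and Pde6c between 92.6 and 98.6. The channel subunit Cngb3 at 73.8, 76.1 and 77.0 and the transducin subunit Gngt2 at 52.3, 44.8 and 47.4 were the dimmest.

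Among photoreceptor transcription factors (15 members, medians of 96.3, 96.7 and 94.6, 9 in the top 10% of all arrays), Nrl, Crx and Neurod1 were in the top 1% of every array. Neurod1, a basic helix-loop-helix factor that photoreceptors need to survive, lay at 99.53, 99.53 and 99.26. Rorb, which acts above Nrl in rod development, lay at 98.2, 97.5 and 99.34, and Mef2d at 96.3, 96.7 and 99.20. Otx2, which acts above Crx, lay at 98.7, 98.6 and 94.6. The 4 dimmest members followed. Neurod2, a relative of Neurod1, lay at 68.8, 73.1 and 80.9. The thyroid hormone receptor Thrb lay at 63.5, 63.6 and 66.1, the retinoid receptor Rxrg at 58.4, 57.2 and 30.1, and Prdm1 at 76.9, 76.8 and 83.7.

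The orphan nuclear receptors of the ERR group regulate mitochondrial and energy genes, and ERRβ is the receptor the series was made to study. Its gene, Esrrb, lay at 94.9, 94.7 and 98.6, with signals of 2951, 2934 and 1771. Esrrg lay at 93.7, 92.8 and 98.2 and Esrra at 76.5, 78.2 and 68.1. Esrrb and Esrrg were in the top 10% of all 3 arrays and Esrra in none. Probe sets of these genes disagreed widely. With the median over all probe sets of a gene in place of the brightest, the list's mean percentile was 64.4 in place of 94.9.

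The photoreceptor terminal releases glutamate at a ribbon synapse, whose genes had medians of 96.4, 96.2 and 95.4 (20 members, 14 in the top 10% of all arrays). Stx3, the syntaxin of ribbon terminals, lay at 99.82, 99.83 and 99.69, Mpp4, a scaffold of the rod terminal, at 99.45, 99.51 and 99.79, and Ctbp2, whose gene also encodes the main ribbon protein, at 98.7, 98.996 and 99.82. The retina-specific complexins Cplx4 and Cplx3 lay between 96.8 and 98.9, and the calcium channel subunit Cacna1f at 92.8, 91.9 and 95.1. The large scaffolds Pclo and Bsn were dimmer, at 87.7, 86.9 and 93.3 and at 72.6, 69.9 and 79.5. Of the synaptic genes shared by most neurons (22 members, medians of 93.5, 93.1 and 94.5), Snap25, Syt1 and Nsf were in the top 1% of every array.

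Neurons of the inner retina were represented lower in the range. For bipolar cells the medians were 90.1, 88.7 and 90.02 (20 members, 8 in the top 10% and 0 in the top 1% of all arrays). Among the brightest were Pcp2 at 98.8, 98.7 and 97.1, the G protein subunit Gnao1 at 97.3, 97.2 and 99.003, protein kinase Cα (Prkca) at 97.3, 96.9 and 98.8, and the homeobox factor Isl1, also used by other inner neurons, at 97.1, 96.6 and 99.17. The transduction channel of ON bipolar cells, Trpm1, at 67.8, 65.8 and 62.1 and its partners Nyx at 64.6, 65.6 and 73.1 and Gpr179 at 46.2, 15.99 and 48.1 were dim. Gpr179 was the only member under the 50th percentile in all 3 arrays.

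Amacrine markers had medians of 87.4, 85.6 and 89.5 (21 members, 7 in the top 10% and 1 in the top 1% of all arrays). Gad1, which makes the transmitter GABA, read 11911, 13079 and 2233 and lay at 99.28, 99.36 and 99.15, while its sister enzyme Gad2 lay at 82.3, 84.8 and 84.8. Calretinin (Calb2) at 98.9, 98.8 and 97.3 and Pax6 at 97.8, 97.9 and 97.7 followed, both also present in other retinal cells, and then the glycine transporter Slc6a9 at 95.5, 94.99 and 95.7. Genes of rare amacrine types were near or below the middle of the range. Th, of dopamine cells, lay at 55.5, 49.8 and 37.0, Chat, of starburst cells, at 44.8, 39.1 and 40.4, and Sst, somatostatin, at 57.6, 60.3 and 45.5.

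Ganglion cell markers had medians of 88.1, 87.3 and 80.2 (20 members). In the top 10% were 4 members in all arrays and 9 without replicate 3. Of 20, 14 were lowest in replicate 3, where 49.1% of all genes and 54.5% of those at or above the 80th percentile were. Neurofilament light chain (Nefl), which also marks horizontal cells, lay at 99.42, 99.35 and 99.10 and Thy1, a surface protein of ganglion cells, at 97.2, 97.1 and 94.7. The glutamate transporter Slc17a6 lay at 92.2, 92.5 and 82.6, the RNA-binding protein Rbpms at 74.3, 75.5 and 77.7 and the fate factor Pou4f1 at 75.1, 75.6 and 57.03. Melanopsin (Opn4), of the light-sensing ganglion cells, lay at 57.4, 56.5 and 57.2, a narrow span at a modest level. For horizontal cells (11 members, medians of 84.5, 82.8 and 79.9), calbindin (Calb1) lay at 97.3, 97.4 and 94.9 and the homeobox factor Prox1 at 84.5, 82.8 and 79.9, while Lhx1 and Onecut1 lay between 50.7 and 67.7.

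Müller glia markers were as high as those of cone and synapse genes, with medians of 96.1, 95.6 and 94.2 (25 members, 15 in the top 10% and 3 in the top 1% of all arrays). After Glul, carbonic anhydrase Car2 lay at 99.70, 99.65 and 99.63 and clusterin (Clu) at 99.67, 99.64 and 99.37. Rlbp1 read 11670, 12668 and 1650 and lay at 99.25, 99.32 and 98.4. The list also held apolipoprotein E (Apoe) at 99.30, 99.27 and 96.2, vimentin (Vim) at 98.4, 98.5 and 98.2, the water channel Aqp4 at 91.9, 93.0 and 96.1, and the glutamate transporter Slc1a3 at 91.8, 89.4 and 94.5. Its factors and potassium channel were dimmer, with Sox9 at 52.5, 59.5 and 61.7, Hes1 at 64.9, 71.3 and 83.4 and Kcnj10 at 74.98, 72.7 and 82.4. Genes of astrocytes and reactive glia had medians of 53.5, 56.2 and 51.5 (15 members, 0 in the top 10%), with the filament protein Gfap at 62.4, 65.5 and 57.8.

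Microglia and macrophage markers lay near the middle of the range, with medians of 49.5, 51.0 and 41.4 (20 members, 0 in the top 10%, 8 under the 50th percentile in all arrays). The protease Ctss at 88.6, 89.3 and 79.7 and the receptor Csf1r at 83.2, 83.7 and 84.1 were the brightest. Cx3cr1, a chemokine receptor of microglia, lay at 58.7, 56.4 and 46.1 and Aif1 at 26.0, 30.4 and 15.5. Endothelial and pericyte markers had medians of 69.5, 68.4 and 66.7 (19 members, 2 in the top 10%). The glucose transporter Slc2a1, which photoreceptors and glia use as well, lay at 98.95, 99.001 and 98.4 and the pericyte gene Rgs5 at 95.4, 95.3 and 92.0, whereas Pecam1 lay at 51.0, 34.8 and 39.6. Blood cell genes were low, with medians of 28.3, 26.7 and 25.7 (8 members).

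**Figure D2:**
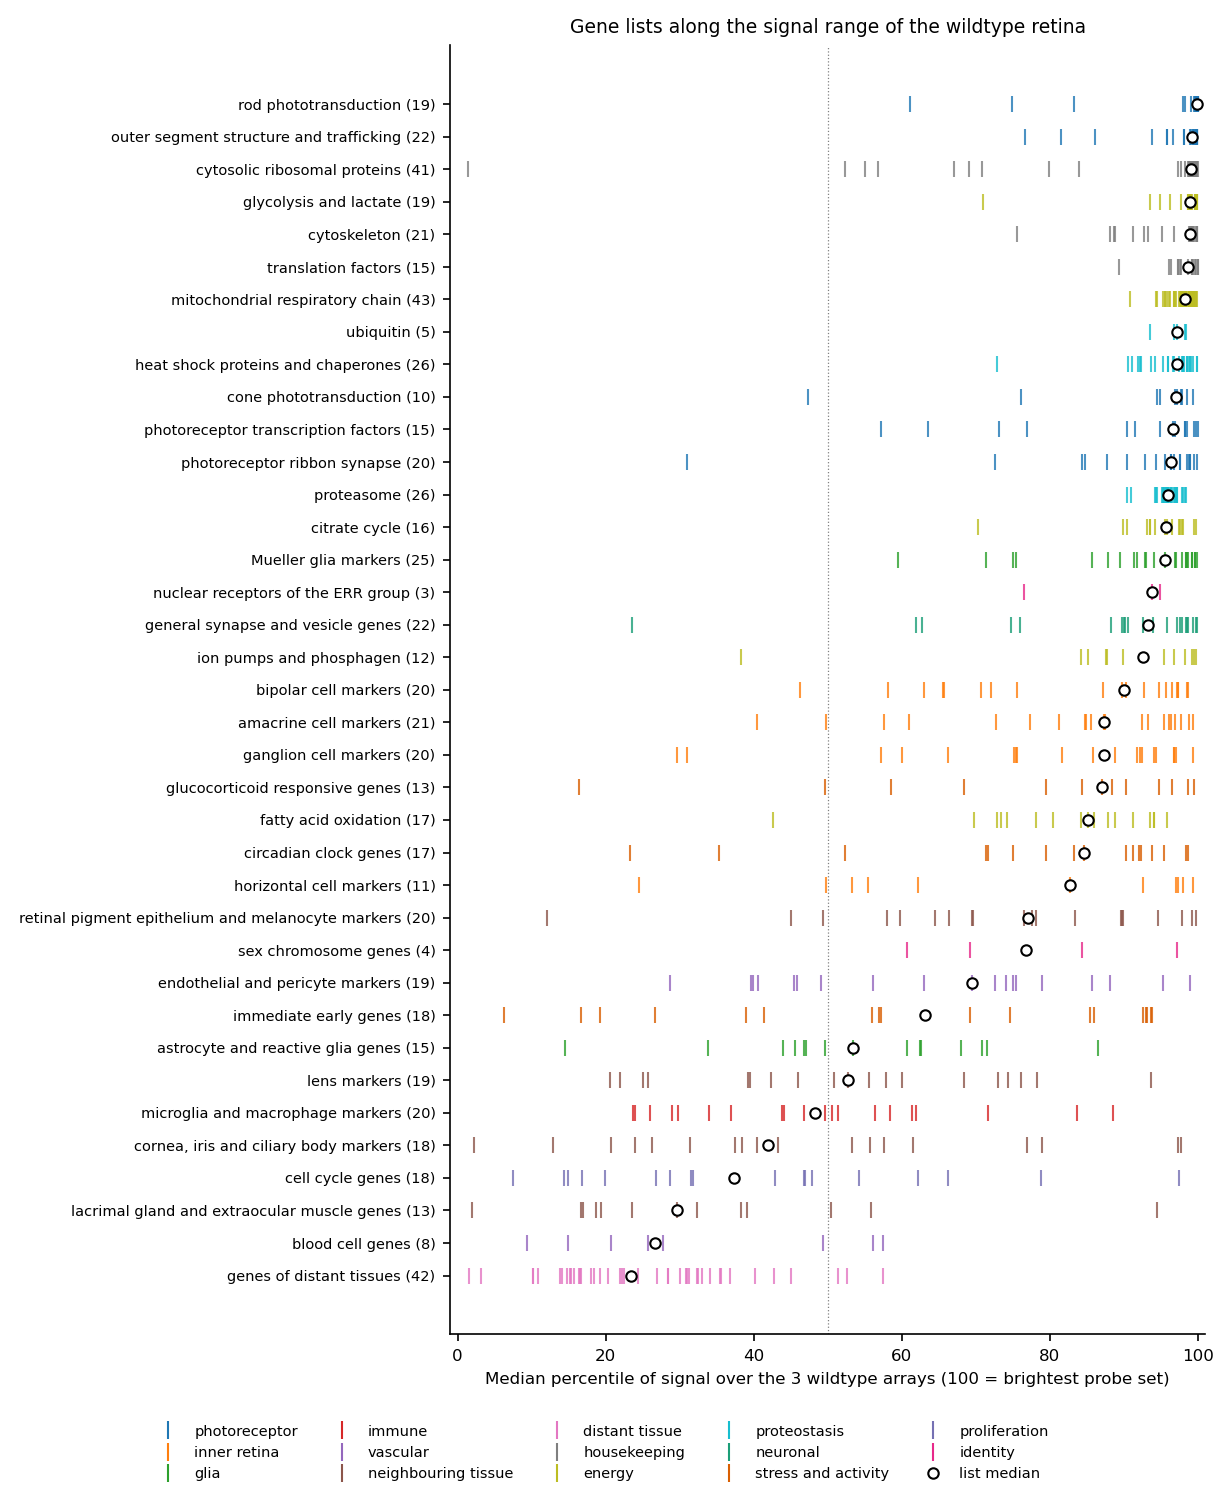
Position of each matched gene of 37 lists along the signal range (horizontal axis, median percentile over the 3 wildtype arrays), with 1 tick per gene, a circle at the list's median, the number of genes in brackets and colours for the kind of list. Rod phototransduction stands highest and genes of distant tissues lowest, and most lists hold some members far below their median.

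Genes that mark tissues next to the retina were not placed alike in the 3 arrays. Markers of the retinal pigment epithelium and melanocytes had medians of 77.1 and 78.6 in replicates 1 and 2 and 52.4 in replicate 3 (20 members), and 14 of 20 were over 10 percentile points below both other arrays in replicate 3, as were 14.8% of all genes. So were 8 of 20 microglia and macrophage markers, 7 of 15 genes of astrocytes and reactive glia and 0 of 19 rod phototransduction genes. Summed over the pigment list, the signal was 373, 400 and 65.2 times the array's median. This sum fell in replicate 3 for most bright lists, among them rod phototransduction (3116, 3228 and 1126) and Müller glia markers (1137, 1184 and 484). The isomerase Rpe65 read 621, 729 and 23.4 and lay at 76.5, 79.2 and 30.1. Tyrosinase (Tyr), which starts melanin synthesis, lay at 77.6, 79.8 and 31.2, the melanosome protein Pmel at 92.6, 89.6 and 64.5, Dct at 98.3, 97.8 and 75.1, Rgr at 89.8, 90.8 and 57.3 and the retinoid acyltransferase Lrat at 66.3, 68.8 and 11.4. The median difference over the pigment list was -22.6 points, against -1.44 over all genes. Genes between the 60th and 80th percentile had a median difference of -2.09 points, with quartiles of -8.95 and 3.94. Transthyretin (Ttr), a carrier of thyroid hormone and retinol-binding protein, read 18620, 20249 and 431 and lay at 99.71, 99.76 and 89.0. Of 20 members, 17 were lowest in replicate 3. The other 3 were Slc45a2, a melanosome transporter, at 50.9, 19.6 and 49.4, Mitf, the factor of pigment cell fate, at 68.9, 69.8 and 69.7, and Ezr at 55.2, 69.5 and 83.9, the only member over 10 points higher. Rlbp1, which is on this list and on that of Müller glia, was lower by under 1 point. Ttr and Rlbp1 together made up most of the pigment list's summed signal in replicates 1 and 2, so that sum says little about the other members.

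Many lens genes were placed higher in replicate 3, although the list's medians, 55.6, 50.8 and 53.3, were not. Of 19 lens markers, 12 were over 10 points above both other arrays in replicate 3, as were 5.43% of all genes, and 2 were over 10 points below. The median of the members' own differences was 18.5 points, and the summed signal was 50.1, 42.6 and 175 times the array's median. The chaperone-like α-crystallin Cryaa read 549 and 542 in replicates 1 and 2 and 2138 in replicate 3, at percentiles of 74.4, 74.4 and 99.05. The β-crystallins Crybb1 at 55.6, 59.97 and 89.1, Crybb2 at 73.1, 63.4 and 96.6, Cryba1 at 78.3, 74.9 and 98.5 and Cryba2 at 57.9, 57.1 and 91.8 were placed alike. The γ-crystallins of lens fibres did not all follow. Crygb lay at 60.1, 52.8 and 40.6, Crygd at 58.5, 50.8 and 43.1 and Cryga at 30.4, 25.03 and 9.04, all lowest in replicate 3. Several crystallins are also made in the retina. Whether tissue carried along at dissection had a part in either list was not tested.

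**Figure D3:**
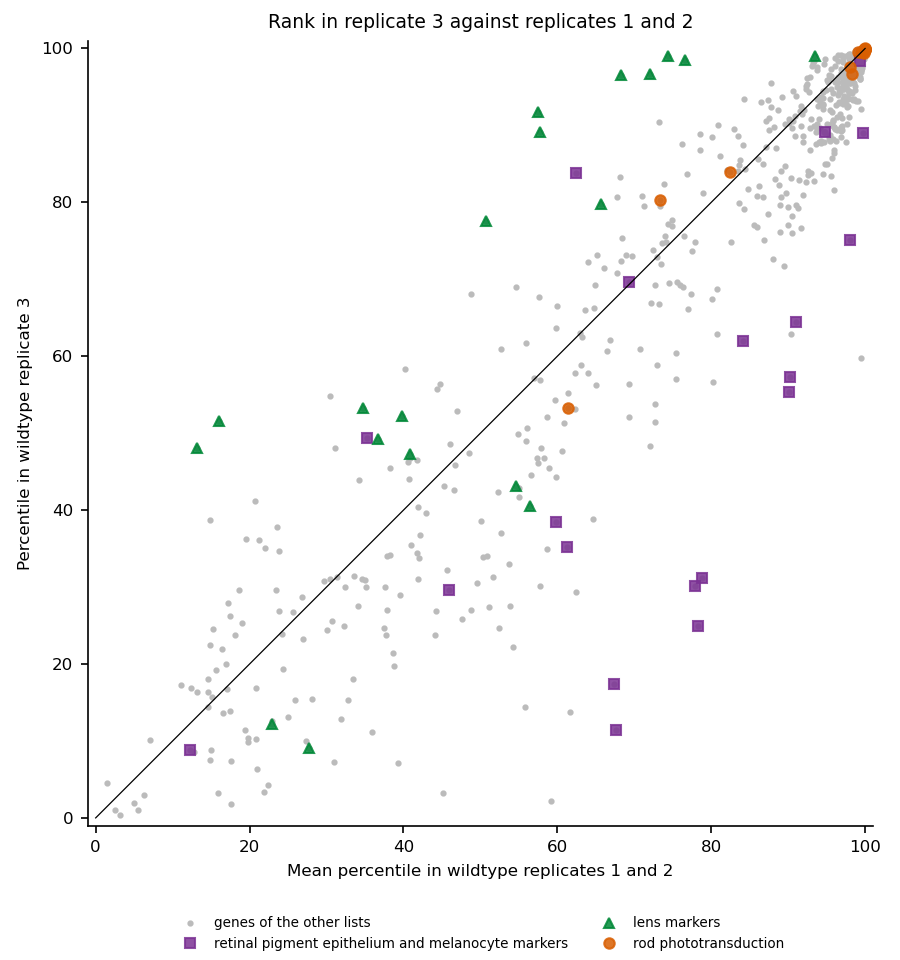
Percentile of signal in wildtype replicate 3 (vertical axis) against the mean percentile in replicates 1 and 2 (horizontal axis) for every gene on a list, with squares for pigment epithelium and melanocyte markers, triangles for lens markers, orange circles for rod phototransduction and a line of equal values. Squares lie mostly below the line and triangles mostly above it, while rod genes crowd at the upper right corner.

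Genes of cornea, iris and ciliary body (18 members) had medians of 52.4, 43.9 and 28.2, and the 2 members in the top 10%, Pax6 and Col9a1, are also retinal genes. The cornea keratin Krt12 lay at 24.0, 24.3 and 23.9 and the cornea proteoglycan gene Kera at 2.26, 0.635 and 4.58. Genes of lacrimal gland and eye muscle (13 members) had medians of 32.5, 20.8 and 16.9. Amy1, an amylase, was far above the rest at 94.5, 94.6 and 94.5. The skeletal actin Acta1 lay at 62.6, 55.8 and 2.16, among the 10 largest differences between replicate 3 and the others.

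Genes of protein synthesis filled much of the top. Cytosolic ribosomal proteins had medians of 99.19, 99.16 and 97.4 (41 members, 32 in the top 10% and 9 in the top 1% of all arrays), led by Rps29 at 99.96, 99.97 and 99.9001. Of the 41, 28 were read by probe sets marked as open to cross-hybridisation. Without such probe sets 22 members were left and the mean of the list's medians was 60.5 in place of 98.6. Rps16 shows how far a single probe set can be from the rest, at 5.03, 1.38 and 0.351. Translation factors (15 members, 14 in the top 10%) had medians of 98.6, 98.7 and 98.7, with the ribosome translocase Eef2 at 99.35, 99.25 and 98.9.

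The promoters of the ribosomal list differed in kind from those of the rod list. The ETS core CCGGAAG, bound by a family of widely expressed factors, was counted on both strands. It was found in 18 of 36 matched ribosomal promoters and in 1 of 13 rod promoters, against 13.8% of all promoters, while the CRX core was found in 2 of 36. The upstream bases of the 2 brightest ribosomal genes with the ETS core there are printed 5′ to 3′ with the match in capitals.
Rpl38, chr11:114668330-114668579 (plus strand): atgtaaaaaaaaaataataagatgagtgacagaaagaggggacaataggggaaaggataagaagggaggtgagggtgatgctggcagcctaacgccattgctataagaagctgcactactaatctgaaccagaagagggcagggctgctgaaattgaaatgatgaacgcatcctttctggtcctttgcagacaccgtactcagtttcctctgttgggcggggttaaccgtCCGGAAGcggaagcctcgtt
Rps7, chr12:28635954-28636203 (minus strand): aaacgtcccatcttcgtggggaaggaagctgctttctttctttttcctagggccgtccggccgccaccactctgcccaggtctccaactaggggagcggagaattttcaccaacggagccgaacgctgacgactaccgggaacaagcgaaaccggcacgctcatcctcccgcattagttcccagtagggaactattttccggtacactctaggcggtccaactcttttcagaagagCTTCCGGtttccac
The match begins 20 bases before the start in Rpl38 and 14 in Rps7. It reads CCGGAAG in Rpl38 and its reverse complement in Rps7.

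Cytoskeleton and protein-folding genes were also high. Of 21 cytoskeleton genes, 15 were in the top 10% of all arrays (medians of 98.9, 98.9 and 98.0), with Tuba1a, the α-tubulin of neurons, at 99.92, 99.92 and 99.99. Of 26 chaperones, 18 were (medians of 97.4, 97.2 and 95.3), led by Hsp90aa1 and Hspa8 at 99.76 or above in every array. The stress-induced Hspa1a lay at 92.9, 90.5 and 76.6 and Hspb1 at 72.1, 72.9 and 73.8. Proteasome subunits formed a narrow band, between 90.4 and 98.4 in replicates 1 and 2 for all 26, and lay lower in replicate 3, where the median was 90.7 against 96.0 and 96.0 and 24 of 26 were lowest. All genes between the 95th and 99th percentile had a median difference of -0.39 points, with quartiles of -2.50 and 0.83, and the proteasome list had -5.33.

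Energy metabolism ranked with the photoreceptor lists. Glycolysis and lactate genes had medians of 98.9, 99.001 and 98.7 (19 members, 17 in the top 10% and 6 in the top 1%). Aldoa, which splits the sugar phosphate, and Pkm and Ldha, which carry the last steps to lactate, lay at 99.64 or above in every array, and Hk2, a hexokinase of photoreceptors, at 98.9, 98.8 and 99.50. The lactate carrier Slc16a1 lay at 98.9, 99.08 and 99.42 and Slc16a3 at 74.8, 71.0 and 58.9. Respiratory chain genes had medians of 98.4, 98.2 and 95.6 (43 members, 35 in the top 10% and 3 in the top 1%), from Atp5b, a subunit of ATP synthase, at 99.81, 99.82 and 99.58 to Sdhd, of complex II, at 90.9, 91.2 and 79.7. All 43 were lowest in replicate 3, against 54.5% of genes at or above the 80th percentile, and the median difference was -2.54 points.

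Citrate cycle genes lay somewhat lower, at 95.7, 96.0 and 91.8 (16 members), with the malate dehydrogenases Mdh1 and Mdh2 at 99.31 or above in every array. Fatty acid oxidation lay well below them, at 85.2, 85.9 and 77.0 (17 members, 3 in the top 10% of all arrays and 5 without replicate 3). Its brightest genes were Acadm, a medium-chain dehydrogenase, at 95.8, 95.4 and 96.4 and Cpt1a, which admits fatty acids to mitochondria, at 94.1, 93.5 and 97.6. Ion pumps and phosphagen genes (12 members, medians of 93.0, 92.6 and 95.5) included the sodium pump subunits Atp1b2 at 99.26, 99.22 and 99.83 and Atp1b1 at 99.54, 99.50 and 98.5, and 10 of 12 were highest in replicate 3, as were 34.4% of all genes and 39.99% of those at or above the 80th percentile. The respiratory, citrate cycle and fatty acid lists lay below the other arrays in replicate 3 and the pump list above them.

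Genes that follow the time of day or recent activity spread over the whole range. Clock genes had medians of 83.2, 84.6 and 83.2 (17 members, 6 in the top 10%), with the output factors Nr1d2 at 98.7, 98.7 and 99.13 and Dbp at 98.5, 98.4 and 97.4. Arntl and Clock, the core activators, lay between 91.1 and 92.6, and Per1 at 78.4, 79.5 and 81.2. Immediate early genes had medians of 64.4, 65.2 and 61.5 (18 members), from Egr1 at 94.6, 87.4 and 93.8 and Fos at 95.2, 92.6 and 92.6 down to Arc at 6.34, 6.29 and 3.01. Egr1 and Fos are induced within minutes by handling as well as by light. Of glucocorticoid responsive genes (13 members, medians of 87.0, 88.3 and 84.1), Klf9 lay at 99.46, 99.47 and 92.1 and Pdk4 at 1.68, 24.6 and 16.4.

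Cell cycle genes were low, with medians of 32.6, 42.1 and 29.3 (18 members, 11 under the 50th percentile in all arrays). Mki67, a marker of dividing cells, lay at 7.35, 14.95 and 17.2 and Top2a at 20.6, 30.7 and 26.8, near the genes of distant tissues. Pcna, which also serves DNA repair, was the exception at 97.4, 97.6 and 92.8. The labels give mixed sex, and transcripts of both sexes were read in every array. The X-inactivation RNA Xist lay at 97.2, 92.2 and 98.0 and the Y-linked Eif2s3y at 84.4, 85.1 and 81.8.

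Ranks agreed better between replicates 1 and 2 than with replicate 3. The Spearman correlation over all probe sets was 0.949 for replicates 1 and 2, 0.900 for 1 and 3 and 0.898 for 2 and 3. These describe 3 pairs of arrays that share arrays, over probe sets that are not independent. The median absolute difference in percentile was 3.13, 7.05 and 7.09 points for the same pairs. Of the 450 probe sets in the top 1% of an array, replicates 1 and 2 shared 430 (95.6%), replicates 1 and 3 shared 270 (60%) and 2 and 3 shared 273 (60.7%), and 265 (58.9%) were common to all 3. The exchange at this border was mostly small. The 165 probe sets in the top 1% of replicates 1 and 2 but not 3 had a median percentile of 98.2 in replicate 3. Of the top 10%, 3325 of 4503 (73.8%) were common to all 3.

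Stability depended on where a probe set lay. In bands of 10 percentiles, from the dimmest up, the median span between the highest and lowest of the 3 percentiles was 10.2, 15.6, 17.0, 16.3, 13.9, 10.98, 8.99, 7.54, 5.68 and 2.23 points. Ranks were thus least stable between the 20th and 30th percentile and most stable at the top. Between replicates 1 and 2 alone the median difference went from 9.60 points between the 20th and 30th percentile to 0.251 in the highest band, and between replicates 1 and 3 from 10.7 to 2.00. Among dim probe sets the pairs were alike, and in the upper bands replicate 3 stood apart.

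**Figure D4:**
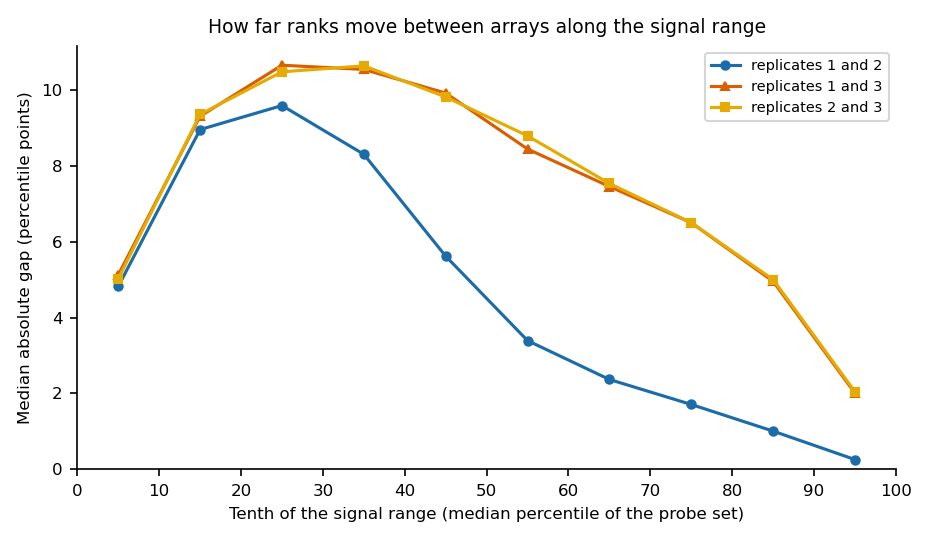
Median absolute difference in percentile between a pair of wildtype arrays (vertical axis, percentile points) by band of 10 percentiles of the signal range (horizontal axis), with a line per pair. The lines meet in the dimmest bands, and above the middle of the range the line of replicates 1 and 2 reaches 0.251 points while the others end near 2 points.

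Single genes with the largest displacement in replicate 3 were taken from the 12493 genes at or above the 40th percentile. The 10 placed lowest were Dhrs7b, Lrat, Acta1, Gsta3, Mlana, Ano6, Fbxo44, 2310009B15Rik, Ndufaf6 and C1qa. Dhrs7b, a reductase, read 731, 598 and 4.36, at percentiles of 79.1, 76.0 and 9.64, and C1qa, a complement gene of microglia, lay at 61.3, 62.0 and 13.7. Of the 10, Lrat and Mlana are pigment epithelium or melanocyte markers. The 10 placed highest were Tmem87a, C730049O14Rik, Pam, Gdpd3, Tmem86b, Cryba2, Slc18a2, Pik3cd, Crybb1 and Krtap12-1, of which 2 are crystallins. Pam, which amidates neuropeptides, lay at 47.7, 55.2 and 91.3, and Slc18a2, the monoamine transporter of vesicles, at 54.0, 52.2 and 85.3.

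Differences between replicates 1 and 2 were of another kind. A gap over 10 points was found for 15.7% of genes. The 10 largest among genes with a median at or above the 40th percentile included 2310002L09Rik, Ptpn6, D13Ertd608e, Mapkapk3 and Ybey. All 10 were under the 70th percentile in every array. Ptpn6, a phosphatase of blood cells, lay at 57.4, 14.9 and 61.7. No gene of the rod, cone, Müller glia or amacrine lists had such a gap, against 23 of 42 genes of distant tissues. Genes with a median under the 40th percentile could not be among the 10 named, so where these lay was partly fixed by that floor.

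Displacement in replicate 3 went with the length of the gene. Among 5465 genes at or above the 80th percentile, split in 5 groups of equal size by the length of the gene in the genome, the median difference between replicate 3 and the other arrays was -3.98, -2.19, -0.41, 0.39 and 1.55 points from the shortest group (median 4.90 kb) to the longest (median 134 kb). The median percentile was 89.5 to 91.3 in all 5 groups. The correlation across these genes was 0.40 (Spearman), and that of gene length with the difference between replicates 1 and 2 was 0.059. Ribosomal and respiratory genes are short, with median lengths of 3.35 and 7.13 kb, and general synapse genes long, with 76.0 kb. The Actb control probe sets gave a 3′ to 5′ signal ratio of 1.83, 1.89 and 2.32, and those of Gapdh 0.727, 0.712 and 0.779. Other controls differed too. The 18S rRNA control probe sets lay between 83.0 and 92.7 in replicates 1 and 2 and between 52.7 and 63.0 in replicate 3. The spiked-in control bioC had mean percentiles of 97.1, 96.7 and 92.1, and bioD of 99.77, 99.68 and 99.54. The part of gene length or of what these controls measure in the differences was not tested, and the split by length was made after the values had been seen.

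Over the whole range, promoters of bright and dim genes differed in several motifs, each searched on both strands of 14367 promoters of 300 bases. The GC box GGGCGG was found in 54.1% of all promoters, in 21.8% of those below the 10th percentile, in 70.5% between the 90th and 95th percentile and in 61.9% of the 197 in the top 1%. The ETS core went from 2.85% below the 10th percentile to 22.2% between the 80th and 90th percentile. The TATA box TATAAA ran the other way, from 19.4% below the 10th percentile to 5.82% between the 90th and 95th percentile, and stood at 11.2% in the top 1%. None of the motif strings contains another of them.

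The CRX core was flat along the range, between 5.13% and 7.58% in every class up to the 99th percentile, and stood at 12.7% in the top 1%, 25 of 197 promoters (exact binomial 95% interval, 8.38 to 18.2%, counting error only). Of the 25, 10 belonged to genes on the photoreceptor lists, namely Sag, Gngt1, Stx3, Guca1a, Aipl1, Crx, Gnb5, Cnga1, Rpgrip1 and Abca4. Among top 1% promoters off those lists the share was 8.72%, 15 of 172, and the 15 include that of Rbp3, a photoreceptor gene on no list. Of the outer segment list 5 of 19 promoters held it, of the photoreceptor transcription factors 4 of 15, of the pigment epithelium and melanocyte list 5 of 16, of translation factors 3 of 12 and of the respiratory chain 0 of 33. The core was therefore not limited to the photoreceptor lists.

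The TATA box stood at 11.2% in the top 1% (exact binomial 95% interval, 7.13 to 16.4%). This interval holds both the 7.82% between the 95th and 99th percentile and the 9.85% of all promoters, so no difference can be read from it. The NRL-type core TGCTGA was found in 17.2% of all promoters, in 15.7% of the top 1% and in 4 of 13 rod promoters. It was also found in 12 of 18 lens, 7 of 14 endothelial and pericyte and 2 of 33 respiratory chain promoters. A share above that of all promoters was therefore not particular to the rod list. The ERR core AAGGTCA was found in 3.85% of all, in 4.06% of the top 1%, in 3 of 13 rod promoters and in 3 of 33 respiratory chain promoters. Of the pigment epithelium and melanocyte list 5 of 16 promoters held it, of the ribbon synapse list 2 of 15 and of the citrate cycle list 0 of 15. It was thus not particular to rod and respiratory genes. The CCAAT box stood at 38.2% of all and 43.7% of the top 1%, and the E-box CACGTG, which reads the same on both strands, at 9.04% and 9.64%.

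**Figure D5:**
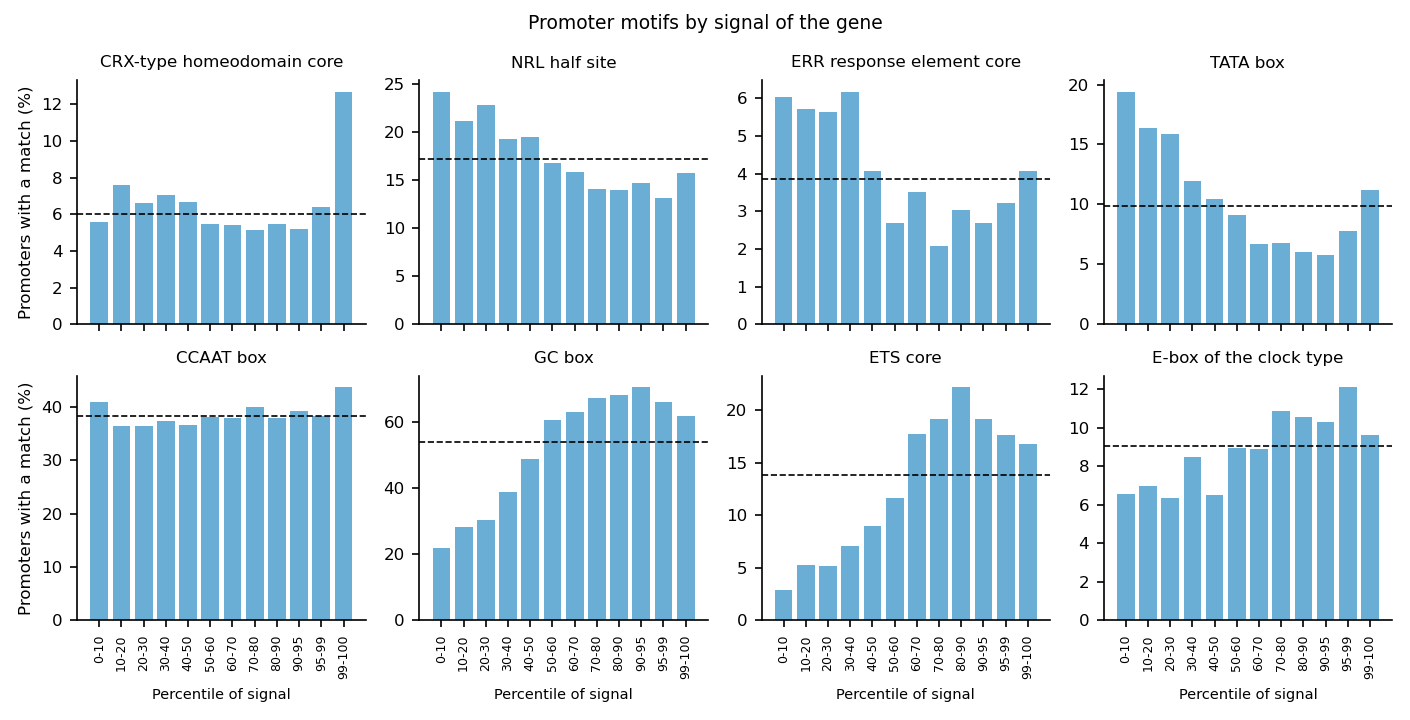
Share of promoters holding each of 8 motifs on either strand (vertical axis, percent, with its own scale in each panel) by percentile of signal of the gene (horizontal axis), with a dashed line at the share of all promoters. The CRX-type core stands out in the brightest class only, whereas the GC box and ETS core are more frequent, and the TATA box less, toward brighter classes over most of the range.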

How the data were processed

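Total RNA was amplified once with an oligo dT primer and hybridised to Affymetrix MOE430 arrays, per the labels' protocols. What the authors deposited is an intensity on a linear scale for each probe set. GCOS 1.4 and MAS5 are the programs that the submitters' processing notes list, without saying what each did. The trimmed mean leaves out 2% of probe sets at either end. Ranks and percentiles were computed within each array, with ties averaged, in Python 3.11.15 with pandas 2.3.3 and scipy 1.17.1. Gene names came from the platform annotation, in which 34945 probe sets had 1 symbol, 932 several and 9160 none, and gene identifiers were updated through GRCm38.p6. Of 787 entries in 37 gene lists, 693 were matched and 94 were not analysed here. The arrays were taken by their titles, but the decision to describe them and the gene lists were made with earlier results of these data known. Named genes are the 40 with the best worst rank, list members, and the 10 with the largest displacement of each kind. The intensities carry no read depth. The ranking was tested on simulated data, and the closing section gives the alternatives tried.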

Additional observations from a re-analysis of the deposited data

How the results depend on the processing

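The mean Spearman correlation of the 3 pairs was 0.916 and moved to 0.884 for the upper 60% of probe sets. In these probe sets it rose to 0.979 for replicates 1 and 2 and fell to 0.839 for 1 and 3 and 0.834 for 2 and 3. Leaving out replicates gave 0.898 to 0.949 over all probe sets, highest without replicate 3. Of the top 1%, 58.9% was common to all arrays, and 60% to 95.6% with a replicate left out, again highest without replicate 3. The median of the rod phototransduction list was 99.78 and moved to 99.64 both with the median over all probe sets of a gene and without probe sets open to cross-hybridisation. The median difference of pigment epithelium markers in replicate 3 was -22.6 points and moved to -19.9 with the median over all probe sets, ranged from -23.3 to -22.8 with replicate 2 or 1 left out, and was -2.17 in quantile-normalized log2 signal. For lens markers it was 18.5 points, 13.8 to 23.2 with replicate 2 or 1 left out and 1.95 in log2 signal. Both lists kept their sign. Of 37 lists, 3 changed the sign of this difference with the median over all probe sets, 2 in quantile-normalized signal, 2 without replicate 1 and 3 without replicate 2. Of these, cell cycle genes had a difference of over 2 points, -2.08, which became 4.36 without replicate 2 and 0.11 in log2 signal. Over the 37 lists, list medians under the alternatives kept their order with Spearman correlations of 0.897 (without probe sets open to cross-hybridisation) to 1.00 (ranks over genes). Ranking over genes keeps the order within each array, so the last value was nearly fixed in advance. The largest change was 38.0 points, for ribosomal proteins, without probe sets open to cross-hybridisation. With the median over all probe sets and without such probe sets, bipolar markers went from 89.6 to 73.0 and 76.3. Horizontal cell markers went from 82.4 to 57.5 and 62.7, and endothelial and pericyte markers from 68.2 to 49.2 and 57.6. Ganglion cell markers went from 85.2 to 83.7 and 86.6. Some brighter lists moved too. Photoreceptor transcription factors went from 95.8 to 85.2 and 95.6, cytoskeleton genes from 98.6 to 90.8 and 89.6 and citrate cycle genes from 94.5 to 88.1 and 92.6. The count of 16 rod genes in the top 10% was 16 at the top 5%, 17 at the top 20% and 16 with any replicate left out, an alternative chosen after seeing the data, as was using genes with a single promoter entry, with which the CRX core share in the top 1% was 14.01%. Dim signals limit the ranks of genes below the middle of the range, where replicates 1 and 2 differed by a median of 9.60 points between the 20th and 30th percentile. No paired analysis was possible because a single group was described and no test was made.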

Other observations

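Long non-coding RNAs were mostly dim. The median percentile of 1354 genes annotated as long non-coding was 25.7, against 67.2 for 16465 protein-coding genes, and 16 of them (1.18%) were in the top 10% of all 3 arrays, against 12.4% of protein-coding genes. The bright ones named here were chosen after their values were seen. After E130218I03Rik came Norad, an abundant cytoplasmic RNA that binds Pumilio proteins, at 99.31, 99.30 and 99.77. The host transcripts of miR-124, a microRNA of neurons, followed, with Mir124-2hg at 99.21, 99.33 and 99.88 and Mir124a-1hg at 98.9, 98.99 and 99.76, both highest in replicate 3. Malat1, a nuclear RNA of many tissues, lay at 99.15, 98.7 and 97.7, and the imprinted Meg3 at 97.4, 97.3 and 98.1. The dimmest probe set had a median percentile of 37.0 for Norad, 71.3 for Malat1 and 77.8 for Meg3. E130218I03Rik, Mir124-2hg and Mir124a-1hg had 1 probe set each. The arrays were primed from poly(A) tails and read these host transcripts, not the mature microRNA.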
